A study of Mus musculus with 8 samples.

Results

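The class I antigen presentation genes examined here were 10 named members of 1 pathway, namely B2m, H2-K1, H2-D1, H2-T23, Tap1, Tap2, Tapbp, Psmb8, Psmb9 and Psme1. Each was read from the assembled locus on the same strand whose span best matched the GENCODE gene, with at least 0.5 of the joint span shared, or, where no locus met that rule, from the sum of its RefSeq accession entries. The short-read table lists 65265 rows, which became 45731 genes once the 36574 accession rows were summed by gene. All 10 members were found, 9 from an assembled locus and Psmb9 from 2 summed accession rows. All 10 were above 0 in at least 1 library and were among the 30819 genes tested.

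The cells were HL1, a mouse cardiac muscle line that descends from AT-1 atrial cardiomyocytes and grows in Claycomb medium with norepinephrine. Nuclei were separated with a urea and NP-40 buffer into a soluble nucleoplasm fraction and a pelleted chromatin fraction, and ERCC standard RNAs were added to each fraction before extraction. For each fraction 3 short-read libraries were analysed, made from 100 ng of rRNA-depleted RNA and sequenced as 50 bp stranded single-end reads from independent cultures, together with 2 long-read libraries of chromatin RNA. The groups share line, medium and genotype and differ in the fraction. The question put to the members was how their RNA is divided between chromatin and nucleoplasm, and which molecules long reads recover from chromatin.

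Class I molecules show peptides from inside the cell to CD8 T cells. The proteasome cuts proteins into peptides, the TAP transporter moves the peptides into the endoplasmic reticulum, and a loading complex with tapasin fits them onto a heavy chain paired with beta-2-microglobulin. Nearly all nucleated cells make these proteins, cardiac muscle normally makes little, and interferon gamma raises most of the genes through IRF, NF-κB and NLRC5-dependent promoter elements.

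The upstream sequences of B2m and H2-K1 are shown because both genes carry these elements within a short distance of the start. They are the bases before the RefSeq start in the GRCm38.p6 tables of RefSeq, with motif matches in capitals. B2m lies at chr2:122147437-122147685 on the + strand and H2-K1 at chr17:34000348-34000597 on the - strand, 5′ to 3′.
B2m: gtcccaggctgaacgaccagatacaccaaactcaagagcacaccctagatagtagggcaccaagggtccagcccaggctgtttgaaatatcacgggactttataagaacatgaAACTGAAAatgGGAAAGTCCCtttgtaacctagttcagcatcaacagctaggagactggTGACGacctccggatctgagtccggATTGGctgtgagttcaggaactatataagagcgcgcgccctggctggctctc
H2-K1: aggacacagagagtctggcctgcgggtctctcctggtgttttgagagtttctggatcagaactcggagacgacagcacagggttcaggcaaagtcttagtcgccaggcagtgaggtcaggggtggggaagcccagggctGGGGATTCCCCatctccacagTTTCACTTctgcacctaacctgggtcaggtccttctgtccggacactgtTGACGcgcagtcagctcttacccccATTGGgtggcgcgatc

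The capitals mark the interferon regulatory factor core AANNGAAA, the NF-κB motif, CCAAT and TGACG, each searched on both strands. In B2m the IRF core begins 137 bases before the start and the NF-κB match 126 bases before it. In H2-K1 the NF-κB match begins 111 bases before the start and the IRF core 90 bases before it, so the order is the opposite of that in B2m. The stretch from the NF-κB match to the IRF core of H2-K1, at chr17:34000430-34000458, and that of H2-D1, at chr17:35262923-35262951, is set out here because the 2 heavy chains share it with 1 base of difference over 29 bases.
H2-K1 stretch: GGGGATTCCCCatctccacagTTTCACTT
H2-D1 stretch: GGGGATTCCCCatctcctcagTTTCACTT

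Of the 10 members, 9 have an upstream window of 250 bases in the RefSeq table and Tap2 was not matched. The IRF core was in 4 of the 9 windows, those of B2m, H2-K1, H2-D1 and H2-T23, and in 21.3% of all 32851 windows. The NF-κB motif was in 3, those of B2m, H2-K1 and H2-D1, and in 7.25% of all windows. CCAAT was in 7 and in 33.8% of all windows, and TGACG was in 5 and in 17.8%. Over their best local alignment the H2-K1 and H2-D1 windows were identical at 161 of 177 columns, or 91%. A match gives letters in a window and is not a measurement of binding.

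In the short-read libraries all 10 members were lower in chromatin RNA than in nucleoplasm RNA. Values are normalized counts, the deposited gene counts after division by a size factor for each library, which are not scaled for length. Fold changes are differences of log2(normalized count + 1), chromatin minus nucleoplasm, with standard errors (SE) and Benjamini-Hochberg adjusted p-values from limma over all genes tested. Of all genes tested, 24.9% were called lower in chromatin at an adjusted p under 0.05, and among 10950 protein-coding genes read from an assembled locus the share was 44.3%. A further 31.0% of all genes tested were called higher, and 0 of the 10 members were. The 10 members had a median log2 fold change of -1.73, against 0.34 over all genes tested and -0.32 over the protein-coding genes. Within a bulk fraction fewer cells with an RNA and less of it per cell cannot be told apart, which bears on the level in each fraction. The p-values come from a fit that leaves the replicate number out. They rest on the spread among the 3 libraries of each fraction, which limma adjusts towards that of genes of similar level. With the replicate number as a block all 10 members were still called lower.

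**Figure D1:**
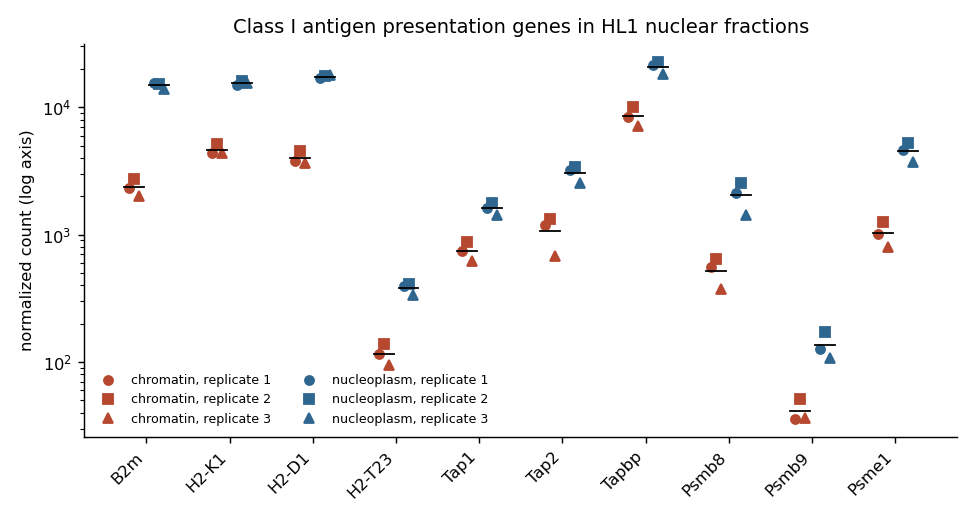
Normalized counts (log axis) of the 10 members in the 3 chromatin and 3 nucleoplasm short-read libraries. Each symbol is 1 library, the bar is the group mean, and the chromatin libraries of each member lie below its nucleoplasm libraries.

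B2m encodes beta-2-microglobulin, the invariant light chain without which heavy chains do not reach the surface. It lies at chr2:122147686-122153083. Its normalized counts were 2341, 2724 and 2024 across the 3 chromatin libraries, in replicate order here and after, and 15602, 15353 and 14012 across the nucleoplasm libraries. The groups were far apart, with the highest chromatin library under the lowest nucleoplasm library. In log2 terms chromatin differed by -2.67 (SE 0.13, 95% interval -2.98 to -2.36, adjusted p = 1.84e-05), or 6.34-fold lower in chromatin, which placed B2m at the low end of the members.

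H2-K1 and H2-D1 encode the classical heavy chains, which hold the peptide and meet the T cell receptor. H2-K1 lies at chr17:33996017-34000347 and H2-D1 at chr17:35262730-35267499, both in the major histocompatibility complex. H2-K1 had 4361, 5149 and 4408 normalized counts in chromatin and 14973, 16190 and 15411 in nucleoplasm. H2-D1 had 3772, 4522 and 3664 in chromatin and 16870, 17442 and 17807 in nucleoplasm. Neither gene's groups overlapped, and in chromatin replicate 2 was the highest library of both. The log2 fold change was -1.75 for H2-K1 (SE 0.10, adjusted p = 2.89e-05) and -2.13 for H2-D1 (SE 0.11, adjusted p = 2.05e-05). These values carry an uncertainty that replicates do not show: 9.63% of the 50-base words in H2-K1 transcripts and 12.8% of those in H2-D1 transcripts also occur in another gene, among them each other's and those of the H2-Q genes, so reads could have been split between them.

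H2-T23 encodes a nonclassical heavy chain that presents mainly leader peptides of other class I chains to receptors of natural killer cells. At chr17:36029773-36032855, it was read at 116, 138 and 94.7 normalized counts in chromatin and 397, 409 and 335 in nucleoplasm. The groups did not overlap. Its log2 fold change was -1.71 (SE 0.18, adjusted p = 3.32e-04), and 13.6% of its 50-base words occur in another gene, most often H2-T-ps.

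Tap1 and Tap2 encode the paired chains of the peptide transporter. Tap1, at chr17:34187553-34197225, had 748, 873 and 625 normalized counts in chromatin and 1624, 1774 and 1413 in nucleoplasm. Tap2, at chr17:34203527-34216321, had 1182, 1332 and 676 in chromatin and 3215, 3387 and 2547 in nucleoplasm. Both genes had separate groups, and chromatin replicate 3 was the lowest library for each, with Tap2 furthest from its other replicates. The log2 fold change was -1.10 for Tap1 (SE 0.15, adjusted p = 0.00111), the smallest among the members, and -1.57 for Tap2 (SE 0.27, adjusted p = 0.00283).

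Tapbp encodes tapasin, the chaperone that bridges the transporter and the heavy chain. Its row, which covers chr17:33916176-33937687, also holds Zbtb22 and Rgl2 on the same strand, so the value is that of 3 genes together. It stood at 8347, 9961 and 7119 normalized counts in chromatin and 21511, 22728 and 18136 in nucleoplasm, again with no overlap. For this row the log2 fold change was -1.30 (SE 0.16, adjusted p = 5.45e-04).

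Psmb8 and Psmb9 encode catalytic subunits of the immunoproteasome that take the places of Psmb5 and Psmb6. Psmb8, at chr17:34197721-34201454, had 553, 638 and 375 normalized counts in chromatin and 2126, 2546 and 1425 in nucleoplasm. Psmb9, at chr17:34181987-34187764, had 35.6, 51.4 and 36.4 in chromatin and 126, 173 and 107 in nucleoplasm. In each gene replicate 2 was the highest library of both fractions, and the fractions did not overlap. The log2 fold change was -1.95 for Psmb8 (SE 0.28, adjusted p = 0.00123) and -1.68 for Psmb9 (SE 0.26, adjusted p = 0.00182).

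Psme1 encodes a subunit of the interferon-inducible activator that opens the gate of the proteasome core. Its row, at chr14:55575674-55581527, also holds Fitm1 on the same strand. It had 1007, 1262 and 796 normalized counts in chromatin and 4583, 5252 and 3749 in nucleoplasm, without overlap. Chromatin minus nucleoplasm came to -2.16 on the log2 scale (SE 0.20, adjusted p = 1.91e-04).

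Among the members 3 were called and more than 4-fold lower in chromatin, namely B2m, Psme1 and H2-D1, while 5.51% of all genes tested and 6.10% of the protein-coding genes were. Every chromatin library lay below every nucleoplasm library for 10 of 10 members, for 27.5% of all genes tested and for 47.6% of the protein-coding genes. From the largest difference to the smallest the order was B2m, Psme1, H2-D1, Psmb8, H2-K1, H2-T23, Psmb9, Tap2, Tapbp and Tap1. Taking the ratio of neighbours within each library, B2m and Psme1 did not overlap between the fractions, nor did Tapbp and Tap1. The ratios of the other neighbours overlapped. Within same-numbered pairs Psmb8 was below H2-K1, and Tap2 below Tapbp, in 3 of 3, and the remaining neighbours had both signs. Members further apart in the order were not compared with one another, except for B2m and Tap1, whose ratios did not overlap. Neighbours and ends were taken from an order ranked on these same libraries. The direction of each mean difference was therefore fixed in advance.

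The scaling bears on these sizes. When libraries were set to an equal ERCC sum instead, the median log2 fold change over all genes moved from 0.34 to 0.81, and 10.5% of genes were called lower. On that scale B2m was at -1.94 (limma adjusted p = 1.81e-04), Tapbp at -0.57 (adjusted p = 0.0374) and Tap1 at -0.37 (adjusted p = 0.128), so that 9 of the 10 members were called lower and 0 more than 4-fold. All 10 stayed under the median of all genes on either scale.

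**Figure D2:**
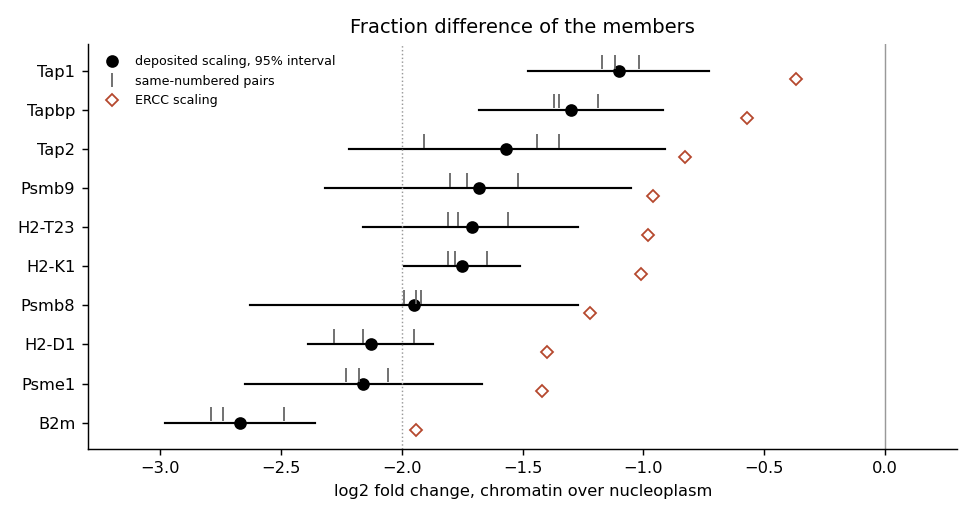
The log2 fold change of each member, chromatin over nucleoplasm, with the 95% interval from limma (line), the 3 same-numbered pairs of libraries (ticks) and the value with ERCC scaling (open diamonds). The dotted line marks a 4-fold lower level, and B2m, Psme1 and H2-D1 lie left of it on the deposited scale.

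Annotated exon length here is the union over all GENCODE transcripts of a gene, which can exceed the length of any 1 mRNA. It fills 93.7% of the H2-T23 span and 90.5% of the Psmb8 span. Compared per kb of annotated exon, B2m was the highest member in both fractions. Its level was 2748 ± 407 normalized counts per kb in chromatin and 17429 ± 994 in nucleoplasm (SD, n = 3). H2-K1 followed with 1579 ± 150 per kb in chromatin and 5284 ± 210 in nucleoplasm, and H2-D1 with 1546 ± 181 and 6736 ± 183. The per-kb ranges of H2-K1 and H2-D1 overlapped in chromatin and were separate in nucleoplasm.

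The transporter and immunoproteasome genes lay lower on the same per-kb scale. Tap2 was at 281 ± 90.8 per kb in chromatin and 807 ± 117 in nucleoplasm, and Psmb8 at 154 ± 39.8 and 601 ± 167 (SD, n = 3), with ranges that overlapped in each fraction. Tap1 stood at 137 ± 22.6 per kb in chromatin, overlapping Psmb8 there, and at 293 ± 33.1 in nucleoplasm, below every Psmb8 library. H2-T23 was at 40.3 ± 7.55 and 132 ± 13.8 per kb, and Psmb9 was last at 11.2 ± 2.42 and 36.9 ± 9.26, each apart from its neighbours. Tapbp and Psme1 have no per-kb level here because their rows hold other genes.

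The genes Psmb9, Tap1, Psmb8 and Tap2 stand together in 1 block of the major histocompatibility complex. Psmb9 and Tap1 point away from each other, with 225 bases between their RefSeq starts, and 225 bases belong to the upstream windows of both. In GENCODE, which has longer first exons, the 2 genes overlap by 212 bases on opposite strands, and the stranded short-read counting keeps them apart. Within the block Psmb9 was far below Tap1 per kb in each of the 6 libraries. However, Psmb9 was read from summed accession rows and Tap1 from an assembled locus. The long-read TPM in chromatin did not show this gap, at 3.95 and 1.21 for Psmb9 and 2.51 and 1.97 for Tap1 in replicates 1 and 2.

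**Figure D3:**
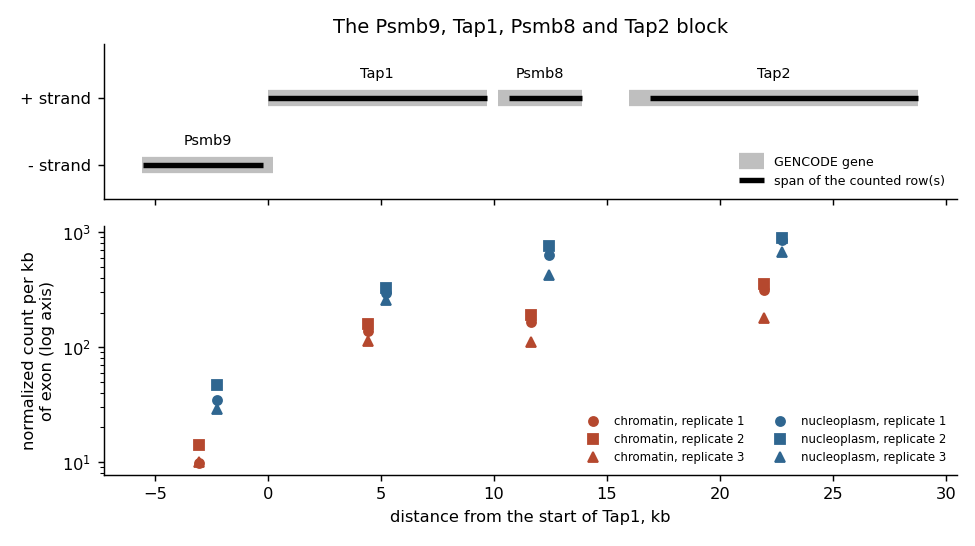
Upper panel, the GENCODE genes (grey) and the spans of the counted rows (black) of Psmb9, Tap1, Psmb8 and Tap2, by distance in kb from the start of Tap1. Lower panel, their normalized counts per kb of exon (log axis) in each library. Psmb9, the only gene of the block read from summed accession rows, is lowest in both fractions.

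The fraction difference followed annotated exon length across the members, which is the union over all GENCODE transcripts and not the length of 1 mRNA. B2m, with 860 bases of annotated exon, had the largest difference, and Tap1, with 5476, the smallest. Spearman's rho between exon length and log2 fold change was 0.915 over the 10 members and 0.905 over the 8 whose row holds no other gene. Over the 10950 protein-coding genes rho was 0.441 for exon length and 0.435 for gene span, so the members' relation has the sign found across coding genes. Among members rho was 0.624 for gene span and 0.537 for the number of exon blocks. Genes of 1 pathway in the same 6 libraries are not independent points, and these values are a description.

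**Figure D4:**
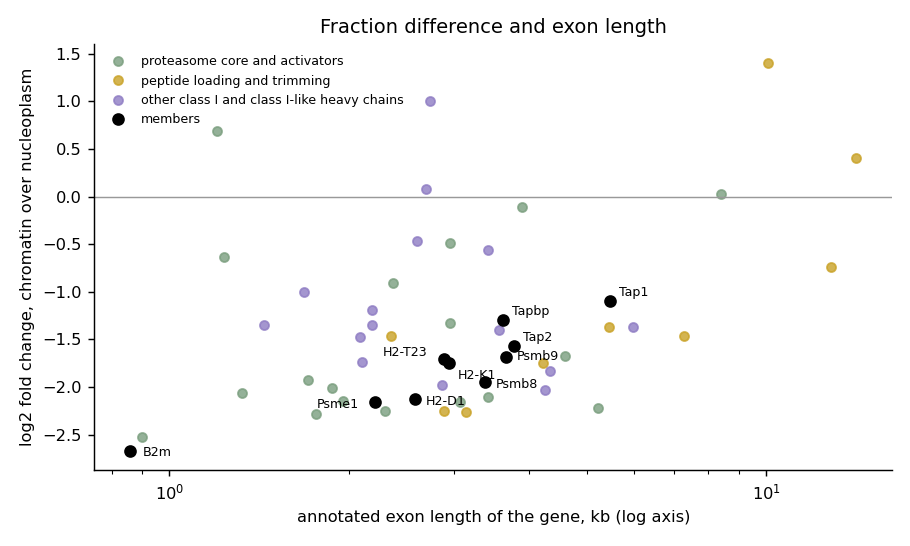
The log2 fold change, chromatin over nucleoplasm, against annotated exon length in kb (log axis) for the 10 members (black, named) and for tested genes of 3 related lists (coloured). B2m sits at the short, low end and Tap1 at the long end of the members.

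Ratios of normalized counts within a library do not depend on the scaling of libraries, and 3 were formed, none of them scaled for length. The ratio of Tap1 plus Tap2 to B2m was 0.825, 0.81 and 0.643 in chromatin and 0.31, 0.336 and 0.283 in nucleoplasm. The transporter was therefore the higher, relative to the light chain, in every chromatin library, with a mean difference of 1.29 on the log2 scale (two-sided exact permutation test, p = 0.1, which is the floor for groups of 3, and 0.15 adjusted over the 3 ratios). H2-K1 plus H2-D1 to B2m was 3.47, 3.55 and 3.99 in chromatin and 2.04, 2.19 and 2.37 in nucleoplasm, a difference of 0.74 (exact permutation p = 0.1, adjusted 0.15). Neither ratio overlapped between the fractions, and each was higher in chromatin in 3 of 3 same-numbered pairs.

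The third ratio set the immunoproteasome subunits Psmb8, Psmb9 and Psmb10 against the constitutive subunits Psmb5, Psmb6 and Psmb7 that they replace. It was 0.201, 0.22 and 0.14 in chromatin and 0.177, 0.203 and 0.112 in nucleoplasm. The fractions overlapped, with replicate 3 the lowest of each. The mean difference was 0.20 on the log2 scale (exact permutation p = 0.6), and within same-numbered pairs it was 0.18, 0.12 and 0.32, chromatin being the higher in 3 of 3. Without nucleoplasm replicate 3 the unpaired difference was -0.05.

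The fold changes of the subunits that replace each other were set side by side. Psmb8 at -1.95 stood beside Psmb5 at -2.53 (adjusted p = 9.49e-05), and Psmb9 at -1.68 beside Psmb6 at -2.01 (adjusted p = 2.15e-05). Psmb10 was at -1.93 (adjusted p = 3.71e-04) beside Psmb7 at -2.11 (adjusted p = 4.02e-05). Psme2, the partner subunit of Psme1 in the activator, was at -2.28 (adjusted p = 3.85e-04). The difference within each of these couples was not tested on its own.

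Across the other proteasome core and activator genes 15 of 18 tested fell in chromatin, 1 rose and 2 were not called. The median log2 fold change was -1.97, and the share of protein-coding genes called lower was 44.3%. With ERCC scaling 11 fell and 2 rose, while 10.5% of all genes tested were called lower and 12508 of 30819 higher. Psmb5, Psme2 and Psmb3 (a core subunit, log2 fold change -2.25) fell most. The gene that rose was Psmb2, another core subunit, with 7834, 7478 and 10460 normalized counts in chromatin and 4968, 5027 and 5793 in nucleoplasm (log2 fold change 0.69, limma adjusted p = 0.0079).

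Of the peptide loading and trimming genes 7 of 9 tested fell and 1 rose, with a median of -1.46, beside 44.3% of protein-coding genes called lower. With ERCC scaling 4 fell and 2 rose, while 10.5% of all genes tested were called lower and 12508 of 30819 higher. With the replicate block 2 rose in limma and 1 in edgeR, beside 10622 and 9062 of the 30819 genes. Pdia3 and Calr, chaperones of the loading complex, fell most, with log2 fold changes of -2.26 and -2.25. Hspa5, a general chaperone of the endoplasmic reticulum, was next at -1.75, and Erap1, the aminopeptidase that trims peptides there, was at -1.46. Tpp2, a large cytosolic peptidase, rose from 10810, 9871 and 12310 in nucleoplasm to 28131, 24205 and 35695 in chromatin (log2 fold change 1.40, limma adjusted p = 5.58e-04).

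Among other class I and class I-like heavy chains 11 of 15 tested fell, 1 rose and 3 were not called. Their median was -1.35, beside 44.3% of protein-coding genes called lower. With ERCC scaling 6 of these heavy chains fell, beside 10.5% of all genes tested. With the replicate block 13 fell, in limma and in edgeR, beside 28.8% and 29.5% of all genes tested. H2-Q7, H2-Q1 and H2-Q10 fell most, with log2 fold changes of -2.03, -1.98 and -1.83, and as near copies they share the doubt on split reads. The list's highest gene was H2-T3, with 93.5, 104 and 64.5 normalized counts in chromatin and 46.5, 43.1 and 37.7 in nucleoplasm (log2 fold change 1.00, limma adjusted p = 0.0132), a call lost without chromatin replicate 1 and with quantile normalization.

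Of the regulators of class I transcription 10 of 22 tested fell, 4 rose and 8 were not called, with a median of -0.31, a count and a median near the background of protein-coding genes (44.3% called lower, median -0.32). With ERCC scaling 2 fell and 8 rose, while 10.5% of all genes tested were called lower and 12508 of 30819 higher. With the replicate number as a block 7 rose in limma and 4 in edgeR. Of the 30819 genes, 10622 and 9062 were called higher in these fits, so no conclusion on the regulators is drawn from these counts. Nlrc5, the transactivator that acts on class I promoters, read from summed accession rows, had 1827, 1693 and 1872 normalized counts in chromatin and 650, 684 and 565 in nucleoplasm, higher in each chromatin library (log2 fold change 1.51, limma adjusted p = 6.30e-05). Rfx5 and Creb1, which bind the same promoters, rose by 1.22 and 0.63 on the log2 scale, while Rfxap, the partner of Rfx5, fell by 1.83. The receptor chain Ifngr1 fell by 1.46 and the NF-κB subunit Rela fell by 1.07. Irf1 was at 1248, 1243 and 1905 in chromatin and 1551, 1608 and 1339 in nucleoplasm, with overlapping groups (log2 fold change -0.06, adjusted p = 0.808).

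Of the interferon-induced genes outside the pathway that were tested, 17 in number, 9 fell, 1 rose and 7 were not called, with a median of -0.82, beside 44.3% of protein-coding genes called lower. Without nucleoplasm replicate 1 the count that fell was 5, beside 22.4% of all genes tested, and Gbp2 was among those lost. With ERCC scaling 3 fell and 4 rose, while 10.5% of all genes tested were called lower and 12508 of 30819 higher. Mx1 and Mx2 were at 0 in each library. Bst2, a tether of enveloped viruses, was at a log2 fold change of -2.67, and the GTPases Gbp2 and Igtp, whose row also holds Irgm2, were both at -1.46. Ifih1, a sensor of double-stranded RNA, rose by 1.04.

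Markers of other cell types were read beside the members. The leukocyte markers summed to between 107 and 211 normalized counts in chromatin and between 88.9 and 117 in nucleoplasm, with 0 of 6 tested called lower and 2 called higher. Ptprc was at most 4.07 and Adgre1 was at 0, while Cd3e and Itgam, at up to 9.37 and 29.3, were called higher in chromatin. Cd68 was the highest of the list, at 52.9, 62.9 and 150 in chromatin and 39.4, 58.7 and 39.1 in nucleoplasm. Csf1r had 20.3, 29.3 and 30.2 in chromatin and 37.4, 46.7 and 48.6 in nucleoplasm. Neither Cd68 nor Csf1r was called. Of 6 class II genes of professional antigen-presenting cells 4 were called lower and 2 higher. H2-Aa was at 0 in chromatin and at 8.08, 4.79 and 13 in nucleoplasm, while the invariant chain Cd74 had 251, 358 and 182 in chromatin and 1501, 1697 and 873 in nucleoplasm. H2-DMa, at 847, 788 and 821 in chromatin and 202, 225 and 341 in nucleoplasm, and Ciita were the higher ones. The 8 of 10 cardiomyocyte markers that had a row summed to between 213266 and 315813 in chromatin and between 70724 and 111143 in nucleoplasm, with 2 called lower, Tnni3 and Gja1, and 3 called higher. In chromatin most of this sum was Ryr2 and the Gata4 row, and the Gata4 row also holds Fdft1 and Neil2. Nppa was at most 113. The 4 fibroblast markers summed to between 101764 and 117258 in chromatin and between 212681 and 347926 in nucleoplasm, mostly Col1a1, so they moved in the direction of the members, and their part in the result was not tested. The 4 endothelial markers summed to at most 2934.

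Replicate 3 stood apart in both fractions, with less Ryr2, Tnni3 and Actc1 and more Dcn and Col1a2. The cardiomyocyte markers did not all go this way. The Gata4 row was highest in replicate 3 of both fractions, at 82875 in chromatin and 20977 in nucleoplasm. Gja1 in nucleoplasm replicate 3 was at 4153, between 4660 and 3950 in replicates 1 and 2. Of the members, Tap2 had 676 in chromatin replicate 3 against 1182 and 1332, and Psmb8 had 375 against 553 and 638. When replicate 3 of both fractions was left out, a choice made after seeing the data, all 10 members were still called lower.

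Long-read sequencing of chromatin RNA gave transcripts for each member. Values are TPM, transcript abundances scaled to the same total in each library, summed over models on the gene's strand with at least 90% of their span inside the gene, and 16 such transcripts were found, of which 11 are reference accessions. The start-to-end span of all 16 touched an annotated exon of either strand. Of 54695 same-strand transcripts inside protein-coding genes, 48.2% had a span that touched no GENCODE exon. Spans rather than exon structures were compared, and a model that covers its whole gene must touch an exon, so no conclusion is drawn from the difference. B2m had 110 and 193 TPM in replicates 1 and 2, almost all from 1 assembled model that spans the whole gene. H2-K1 had 54.5 and 92.9 TPM from 4 reference transcripts, which cover 99.9% of the gene.

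The remaining members followed at lower long-read levels. Tapbp had 42.4 and 40.1 TPM, of which 7.77 and 8.26 came from a model that matches Zbtb22, a gene within the annotated span of Tapbp, and 34.6 and 31.8 from the other model. H2-D1 had 27.1 and 43.6, and Psme1 had 37.8 and 26.5. Psmb8 had 16.4 and 13.4 TPM from 1 reference transcript, and Tap2 had 3.94 and 9.78. Psmb9 was at 3.95 and 1.21, Tap1 at 2.51 and 1.97, and H2-T23 at 0 and 1.09, the only member not above 0 in both libraries.

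Over the 8 members with a row of their own, the mean long-read TPM and the short-read chromatin level per kb had a Spearman's rho of 0.905, and the 2 long-read libraries had 0.927 over the 10 members, both as descriptions. At H2-D1 1 further model started at position -41092 relative to the gene's first base and ended near its last, with 57.4 TPM in replicate 1 and 0 in replicate 2. The 2 long-read libraries therefore gave different structures at this gene.

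Long-read models on the strand opposite to the gene were present at 5 of 10 members, 9 models in all, against 65.9% of 13367 protein-coding genes with a same-strand transcript. At B2m a model nearly the length of the gene had 145 and 59.2 TPM, which is 40.3% of the TPM over both strands. At H2-K1 the opposite strand held 44.9 and 19.4 TPM, or 30.4%. At Tapbp it held 18.1 and 35.4 TPM, or 39.3%. At H2-D1 3 opposite-strand models held 59 and 48.2 TPM and were not counted because 86.2% to 89.1% of their span lay inside the gene. The counted models on the gene's own strand held 27.1 and 43.6 TPM. The same limit left out the own-strand model with 57.4 TPM in replicate 1 and 0 in replicate 2. At H2-T23 2 long opposite-strand models that mostly lie outside the gene held 15.8 and 11.7 TPM. Tap2 had 13.2% and Psme1 3.44%, both from a single model in 1 library. The cDNA reads carry no strand and the deposited assembly was not stranded, so an antisense RNA and the gene's own transcript cannot be told apart at these genes. Over both strands B2m averaged 254 TPM.

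**Figure D5:**
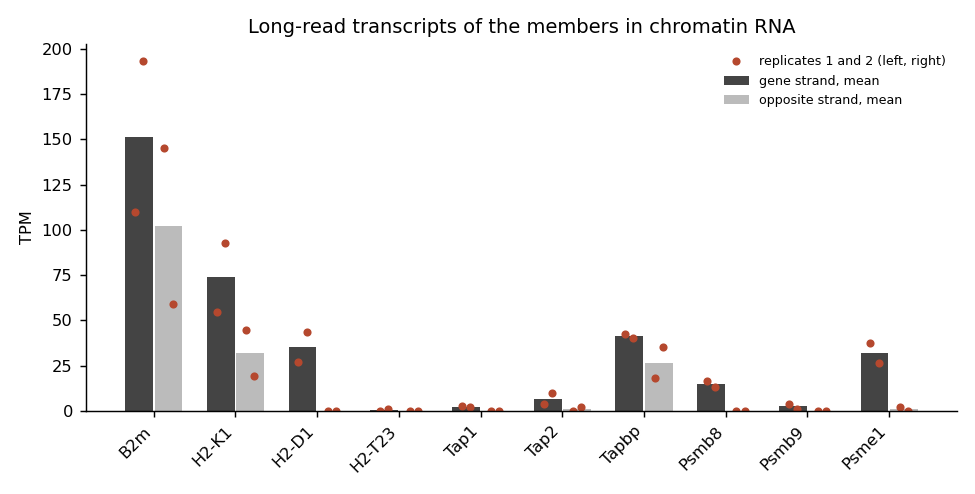
Long-read TPM of the 10 members in chromatin RNA, for transcripts on the gene's strand (dark bars) and on the opposite strand (light bars). Bars are means of 2 libraries and points are the libraries, for models with at least 90% of their span inside the gene. Opposite-strand models are seen at B2m, H2-K1 and Tapbp, and those at H2-D1 miss that limit and are not drawn.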

How the data were processed

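HL1 chromatin and nucleoplasm RNA was analysed from 3 short-read libraries each, and chromatin RNA from 2 long-read libraries. The authors aligned short reads with HISAT2 2.1.0 to mm10, built and merged an assembly in StringTie, and took gene counts from prepDE. The authors deposited these counts as a normalized signal, divided by a DESeq2 size factor per library. For long reads (minimap2, StringTie) the authors deposited TPM, re-estimated in each library. The tools are named in the submitters' processing notes and the methods. In 100% of the values a short-read library's normalized count was a whole multiple (within 0.01) of its smallest non-zero value, taken as a count of 1. The counts recovered in this way totalled 91657034 to 121773350 per library. They are prepDE gene counts, and their sum need not be the number of sequenced reads. The nucleoplasm libraries carry a chromatin label for the fraction and were grouped by title.

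Log2(normalized count + 1) values were compared in limma 3.58.1 under R 4.3.3, using its trend option, for genes above 0 in at least 1 library. Count tests on the recovered counts were alternatives: edgeR 4.0.16 called 7925 genes lower and 8357 higher, DESeq2 1.42.0 called 7646 and 8500, and limma called 7679 and 9568. In 3 simulated draws limma recovered 96.0% to 96.5% of 200 genes changed by 2 on the log2 scale, while unchanged genes made up 2.03% to 3.52% of the calls. The draws used an assumed spread, no replicate effect and far fewer changed genes than were called here, so these rates need not hold for the real libraries. Alternatives changed the pseudocount, filter, tool, trend, scaling, rows, libraries and replicate block.

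Deviations from the group means correlated with r = 0.174, 0.172 and 0.398 between same-numbered libraries of the 2 fractions and with -0.268 to 0.149 otherwise. The replicate numbers in the titles were taken as pairs. Swapping replicates 1 and 2 gave r = 0.149 and 0.106, near their same-numbered values. The correlations therefore cannot settle the pairing of replicates 1 and 2.

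The members and lists were chosen with earlier results of these data known. Named genes were the 10 members, their counterparts, and from each list the 3 largest rises and 3 largest falls with an adjusted p under 0.05 and a mean of at least 100; H2-T3, Cd74, H2-DMa and other markers were named after their values were seen. The 90% limit for long-read models was set after the table was seen. Gene positions come from GENCODE M21, and upstream sequences from RefSeq. Precision is limited by the number of libraries.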

Additional observations from a re-analysis of the deposited data

How the results depend on the processing

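Under 19 alternatives all 190 member values stayed lower in chromatin and 189 were called. The exception was Tap1 with ERCC scaling, at -0.37 (limma adjusted p = 0.128). With ERCC scaling 3245 genes were called lower and 12508 higher, against 7679 and 9568, and with quantile normalization 8666 and 7438, which moved the median of all genes from 0.34 to -0.04. ERCC scaling left 0 members more than 4-fold lower, 6 other heavy chains, 4 loading genes, 2 regulators and 3 interferon-induced genes lower, and 2 loading genes, 2 proteasome genes, 8 regulators and 4 interferon-induced genes higher; the cause was not tested. Quantile normalization left 0 other heavy chains higher. Loading genes called higher were 2, against 1, with a mean of at least 10, with DESeq2, with the replicate block and without replicate 3 of both fractions. Over all genes 10622 were called higher with the replicate block in limma and 10340 without replicate 3 of both fractions, against 9568. Regulators called higher were 7, against 4, with the replicate block in limma and also without replicate 3 of both fractions, and 4 with the block in edgeR; the block changed no call of a member, and the 3 ratios kept their differences of 0.20, 1.29 and 0.74 with an exact permutation p = 0.25, the smallest that 3 pairs allow.

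Leaving out 1 library at a time, other heavy chains called higher were 0 to 1 (H2-T3, lost without chromatin replicate 1), loading genes called higher 1 to 2 (2 without chromatin replicate 3), members more than 4-fold lower 2 to 4 (2 without chromatin replicate 3), and interferon-induced genes called lower 5 to 8 (5 without nucleoplasm replicate 1). In these fits 22.4% to 25.5% of all genes tested were called lower. The immunoproteasome ratio ranged from -0.05, without nucleoplasm replicate 3, to 0.40. The long-read sum over the members was 361 TPM, 299 to 423 with 1 library left out, 524 over either strand and 139 for models wholly inside the gene, an alternative chosen after seeing the data that dropped models of B2m and H2-K1 ending a few bases outside.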
